A study of Rattus norvegicus with 26 samples.

Results

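The genes described here encode the contractile filaments of vascular smooth muscle. They are the actins Acta2 and Actg2, the myosin chains Myh11 and Myl9, the tropomyosin Tpm2, the filament-bound proteins Tagln, Cald1, Lmod1 and Smtn, and the intermediate filament protein Des. They were chosen by the role of their products, and found as the gene probes whose RefSeq accession belongs to 1 of these symbols, which gave 15 of the 30367 probes outside the controls and 10 of the 15168 genes named on the array. Actg2, Myh11, Cald1, Lmod1 and Smtn had 2 probes each, of which the brighter stands for the gene unless both are given, and the other 5 genes had 1. The signal of all 15 probes cleared background on 25 or more of the 26 arrays, none was saturated, and all were among the 23744 probes tested.

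A smooth muscle cell shortens when myosin filaments pull on thin filaments of actin. Acta2 and Actg2 are the actins typical of smooth muscle, Myh11 is its myosin heavy chain and Myl9 the light chain whose phosphorylation switches the motor on. Tropomyosin lies along the thin filament, caldesmon (Cald1) restrains the motor there, and calponin-like transgelin (Tagln), leiomodin (Lmod1) and smoothelin (Smtn) bind or build actin filaments. Desmin (Des) ties the contractile units together. These genes are widely used as markers of the contractile state of smooth muscle, which makes up most of the aortic media, and many are driven by serum response factor and myocardin through CArG boxes in their regulatory DNA.

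The animals were male spontaneously hypertensive rats (SHR), an inbred strain with inherited high blood pressure, dosed by mouth for 4 weeks, and total RNA came from each thoracic aorta. The groups received saline (7.5 mL per kg, n = 8 arrays), Songling Xuemaikang capsule (SXC), a Chinese herbal medicine, at 236.25 mg per kg (low dose, n = 6) or 708.75 mg per kg (high dose, n = 6), or valsartan at 21.6 mg per kg (n = 6), which blocks the AT1 receptor for angiotensin II. The labels name 8 rats in the valsartan group, of which 6 have an array here. No strain with normal blood pressure was analysed here, and no age is given by the labels. A level below is the log2 of a probe's signal over the 75th percentile of the probes on its array, and a call is an adjusted p under 0.05 (limma, Benjamini-Hochberg over all tested probes of a comparison). How many arrays a group has limits the precision.

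The arrays were not alike. All 8 saline arrays were scanned on 1 day, 97 days after the first scan, while the treated arrays were scanned within 15 days of it, so scan day and treatment cannot be told apart in the comparisons with saline. The saline, the low-dose and the high-dose arrays 1 and 2 were read at the higher of 2 detector gains, and high-dose arrays 3 to 6 and all valsartan arrays at the lower. The share of probes well above background was 67.3% to 77.0% on the saline and low-dose arrays, 28.7% to 79.3% on the high-dose arrays and 32.4% to 56.5% on the valsartan arrays. Saline arrays 1 and 5, 2 and 6, and 3 and 7 held the same places on 2 slides and deviated from their slide means together over all probes (r = 0.71, 0.66 and 0.87), whereas arrays 4 and 8 did not (r = -0.03) and lay close to averages of other saline arrays. The SD over probes was 0.23 between array 4 and the mean of arrays 1 and 2, and 0.28 between array 8 and the mean of arrays 2 and 3, while the next closest arrays, saline array 6 and low-dose array 4, had 0.30, so array 8 stood apart little in this. Counts with the 3 pairs averaged are therefore given beside those with 8 saline arrays. Saline arrays 3, 7 and 8 were rich in fat markers, as described with the levels by array below, and counts without them are given as well.

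Most of the member probes were bright, as the rule describes them. For the brighter probe of each gene, the median share over the 26 arrays of probes dimmer than it was lowest for Lmod1, at 88.6%, and highest for Acta2, at 99.1%. The dimmer probes of Smtn and Lmod1 were not among the brightest: 60.5% to 77.0% and 62.8% to 79.3% of probes were dimmer than they were. These shares describe the signal of a probe and not the amount of 1 RNA relative to another.

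Against saline, most of the filament genes that passed the test were lower after treatment, and Smtn was higher in all 3 comparisons. With high-dose SXC, 8 of the 10 genes were called, where 56.2% of all tested probes were: Myh11, Myl9, Tagln, Tpm2, Cald1, Lmod1 and Des fell and Smtn rose. With low-dose SXC, 4 of 10 were called, against 39.3% of all probes: Tpm2, Lmod1 and Des fell and Smtn rose. With valsartan, 6 of 10 were called, against 57.6% of all probes: Acta2, Tagln, Tpm2, Lmod1 and Des fell and Smtn rose. The share called lower among all probes was 25.4% for the high dose, 16.9% for the low dose and 27.3% for valsartan, beside 7, 3 and 5 of the 10 genes, and the share called higher was 30.7%, 22.4% and 30.3%, beside 1 gene each time. The median log2 fold change of the 10 genes was -0.68 for the high dose, -0.13 for the low dose and -0.53 for valsartan, beside 0.10, 0.08 and 0.10 over all tested probes. With slide as a random block (estimated correlation 0.23), 5, 4 and 5 of the 10 genes were called, beside 45%, 28.2% and 44.3% of all probes. The 3 comparisons share the saline arrays. In bulk tissue, fewer smooth muscle cells and less of an RNA per cell cannot be told apart.

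**Figure D1:**
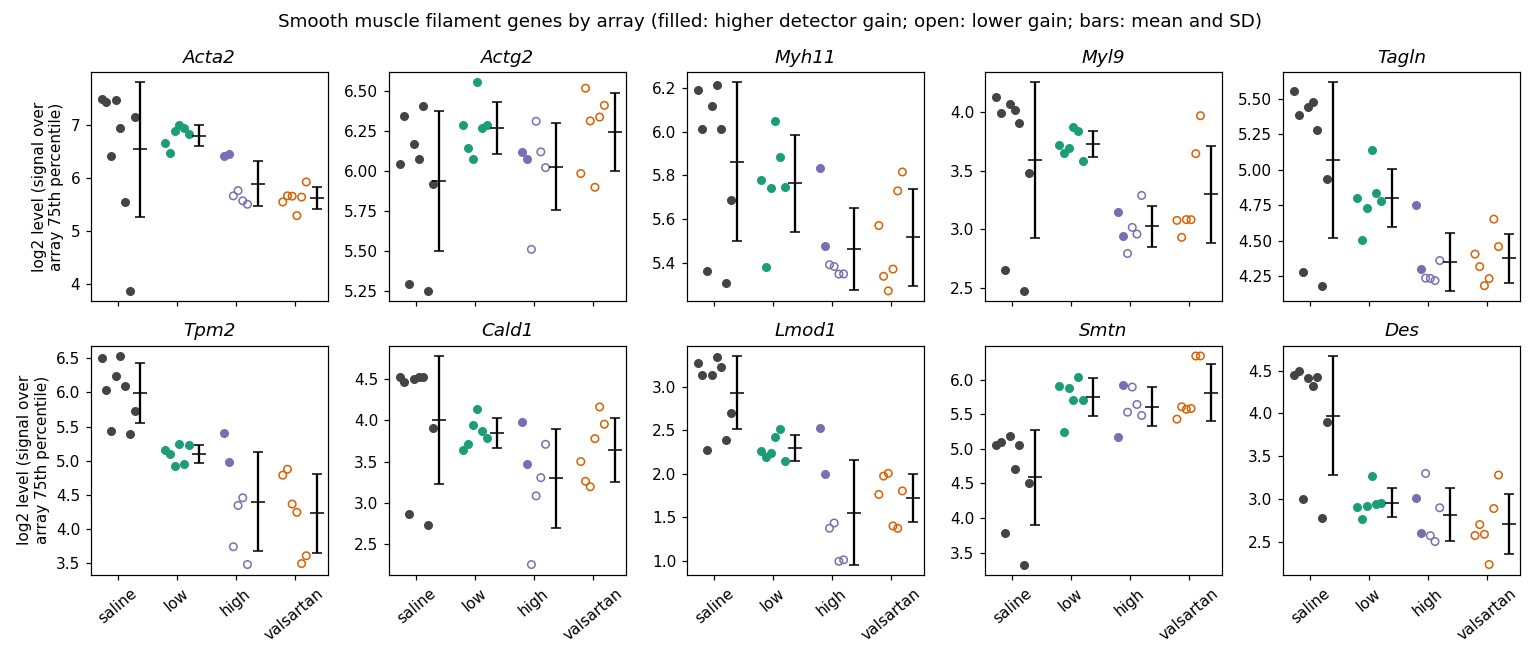
Level of each filament gene (brighter probe) on every array, as log2 of the signal over the array's 75th percentile, for saline (8 arrays), low-dose SXC, high-dose SXC and valsartan (6 each), with group mean and SD as bars. Filled points are arrays at the higher detector gain and open points arrays at the lower gain. Des and Lmod1 levels of the treated groups lie mostly below the saline points, Smtn levels above them, and the saline points of several genes spread over more than 1 log2 unit.

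Acta2, the main actin of arterial smooth muscle, was the most variable member among the saline arrays. Its levels on saline arrays 1 to 8 were 7.48, 7.42, 6.41, 7.47, 6.94, 5.53, 3.86 and 7.14. With the low dose they were 6.66, 6.47, 6.88, 7.00, 6.93 and 6.82, with the high dose 6.41, 6.45, 5.66, 5.76, 5.56 and 5.50, and with valsartan 5.54, 5.66, 5.65, 5.28, 5.63 and 5.92. All treated values lay within the saline range, whose lower end was array 7, the lowest of all 26 arrays. Acta2 was 1.89-fold lower with valsartan (log2 fold change -0.92 ± 0.38 SE, adjusted p = 0.0393), whereas the high-dose difference of -0.64 ± 0.38 (adjusted p = 0.148) and the low-dose difference of 0.26 ± 0.38 (adjusted p = 0.617) did not pass.

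The saline values of Acta2 differed more between the slides than those of the other member probes in 3 of the 4 places. Between saline arrays at the same place on the 2 slides, Acta2 was lower on the second slide (arrays 5 to 8) in all 4 pairs, by log2 differences of -0.54, -1.89, -2.55 and -0.34. The other 14 member probes differed by -0.34 to 0.06, -0.10 to 0.09, -0.45 to 0.12 and -0.68 to -0.16 in the same pairs, so that Acta2 lay outside their range in the first 3 pairs and inside it in the last. With saline arrays 1 to 4 alone, Acta2 was called lower with the high dose (log2 fold change -1.31, adjusted p = 4.48e-05) and with valsartan (-1.58, adjusted p = 5.3e-06), and was -0.40 with the low dose (adjusted p = 0.173). With arrays 5 to 8 alone, none of the 3 differences passed (0.02, adjusted p = 0.971, for the high dose, -0.25, adjusted p = 0.624, for valsartan, and 0.93, adjusted p = 0.0835, for the low dose). The Acta2 comparisons with saline thus rest on which saline slide is used.

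RefSeq promoter sequence (250 bases before to 50 after the start, GRCr8) was at hand for 6 of the 10 members. The consensus CArG box, with a core of 6 bases that are all A or T, was found in none of the 6 upstream stretches and in 1.5% of all 27457 searched on both strands. A CArG-like box, in which 1 of the 6 core bases is G or C, was found in Acta2 alone of the 6 and in 6.73% of all. It was added after the sequences had been seen. Both Acta2 matches are shown with 20 bases on each side, in the direction of transcription and with the box in capitals, because elements of this kind are known to bind serum response factor in the Acta2 promoter. The farther box has 124 bases between it and the start and lies in chr1:241172608-241172657, minus strand, and the nearer has 74 and lies in chr1:241172558-241172607.
Acta2 farther CArG-like box: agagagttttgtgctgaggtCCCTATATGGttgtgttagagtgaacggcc
Acta2 nearer CArG-like box: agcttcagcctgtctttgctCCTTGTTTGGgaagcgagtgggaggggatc

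The MCAT motif (CATTCC on either strand), bound by TEF-1 family factors in muscle genes, was found upstream of Acta2 and Cald1 among the 6, and in 11.8% of all promoters. Both matches lie on the opposite strand, so that they read GGAATG in the direction of transcription, and are shown with the match in capitals because Acta2 and Cald1 are the 2 members of the 6 that hold it. The Acta2 match lies in chr1:241172674-241172719, minus strand, and the Cald1 match in chr4:64233041-64233086, plus strand. The TATAAA motif was found in none of the 6 and in 13.1% of all.
Acta2 MCAT: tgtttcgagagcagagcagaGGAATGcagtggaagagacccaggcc
Cald1 MCAT: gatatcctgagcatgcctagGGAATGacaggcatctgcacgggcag

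Actg2, the actin of visceral smooth muscle that is also made in arteries, passed in none of the 6 comparisons. The lowest, median and highest level was 5.25, 6.06 and 6.40 with saline, 6.08, 6.28 and 6.55 with the low dose, 5.51, 6.10 and 6.31 with the high dose and 5.90, 6.32 and 6.52 with valsartan. All 4 groups overlapped, and the 2 lowest saline values were those of arrays 3 and 7. Its log2 fold changes against saline were 0.33 ± 0.17 (low dose, adjusted p = 0.122, 95% interval -0.02 to 0.68), 0.09 ± 0.17 (high dose, adjusted p = 0.676, -0.26 to 0.44) and 0.31 ± 0.17 (valsartan, adjusted p = 0.124, -0.04 to 0.65). With valsartan it was called higher under quantile scaling (0.48, adjusted p = 0.0229), with the 75th percentile taken over spots (0.40, adjusted p = 0.0461) and with the authors' deposited table (0.50, adjusted p = 0.0226).

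Myh11, the heavy chain of the smooth muscle motor, was modestly lower with the high dose. Its lowest, median and highest level was 5.31, 6.01 and 6.21 with saline, 5.38, 5.76 and 6.05 with the low dose, 5.35, 5.39 and 5.83 with the high dose and 5.27, 5.47 and 5.82 with valsartan. The high-dose values clustered near the bottom of the saline range apart from array 1. Against saline it was 1.32-fold lower with the high dose (-0.40 ± 0.15, adjusted p = 0.0257), -0.35 ± 0.15 with valsartan (adjusted p = 0.0503) and -0.10 ± 0.15 with the low dose (adjusted p = 0.637). The high-dose call was lost under quantile scaling (adjusted p = 0.178), over spots (0.142) and with the authors' deposited table (0.199). Its dimmer probe was called lower with the high dose (-0.58, adjusted p = 0.00325) and with valsartan (-0.58, adjusted p = 0.00317).

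Myl9, the regulatory light chain, fell only with the high dose among the calls against saline. Its lowest, median and highest level was 2.47, 3.95 and 4.13 with saline, 3.58, 3.71 and 3.87 with the low dose, 2.79, 2.99 and 3.29 with the high dose and 2.93, 3.08 and 3.97 with valsartan. Saline arrays 3 and 7 were the lowest of all 26 (2.65 and 2.47), and the remaining 6 saline arrays lay above every high-dose array. The high-dose difference was -0.57 ± 0.23 (1.48-fold lower, adjusted p = 0.0349), and those with valsartan (-0.29 ± 0.23, adjusted p = 0.272) and the low dose (0.14 ± 0.23, adjusted p = 0.666) did not pass. The high-dose call was lost in the same 3 scalings (adjusted p = 0.0835, 0.101 and 0.0753).

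Tpm2, the beta tropomyosin, showed the largest fall of the 10 genes with the high dose and with valsartan. Its levels on saline arrays 1 to 8 were 6.50, 6.04, 5.44, 6.25, 6.54, 6.10, 5.40 and 5.73. With the low dose they ranged from 4.93 to 5.24 (median 5.12), with the high dose from 3.48 to 5.41 (median 4.40) and with valsartan from 3.49 to 4.87 (median 4.30). The low-dose and valsartan arrays all lay below the lowest saline array, and of the high-dose arrays only array 1 reached it. The fall was 1.86-fold with the low dose (log2 fold change -0.90 ± 0.26, adjusted p = 0.00762), 3.02-fold with the high dose (-1.60 ± 0.26, adjusted p = 1.18e-05) and 3.41-fold with valsartan (-1.77 ± 0.26, adjusted p = 2.84e-06).

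Tagln, the actin-binding transgelin, ranged from 4.18 to 5.55 with saline (median 5.33), from 4.51 to 5.14 with the low dose (median 4.79), from 4.22 to 4.75 with the high dose (median 4.27) and from 4.18 to 4.65 with valsartan (median 4.36). Every high-dose and valsartan array lay below the saline arrays other than 3 and 7. It fell 1.64-fold with the high dose (-0.72 ± 0.19, adjusted p = 0.00188) and 1.61-fold with valsartan (-0.69 ± 0.19, adjusted p = 0.00251), and the low-dose difference of -0.27 ± 0.19 did not pass (adjusted p = 0.264).

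Cald1, caldesmon, ranged from 2.73 to 4.53 with saline (median 4.49), from 3.64 to 4.14 with the low dose (median 3.82), from 2.25 to 3.98 with the high dose (median 3.39) and from 3.20 to 4.16 with valsartan (median 3.64). Saline arrays 1, 2, 4, 5 and 6 lay between 4.47 and 4.53, above all treated arrays, while arrays 3, 7 and 8 read 2.87, 2.73 and 3.90. It fell with the high dose (-0.71 ± 0.28, 1.63-fold, adjusted p = 0.0364), and the valsartan (-0.36 ± 0.28, adjusted p = 0.278) and low-dose (-0.16 ± 0.28, adjusted p = 0.695) differences did not pass. The high-dose call was lost under quantile scaling (adjusted p = 0.0659), over spots (0.0804) and with the authors' deposited table (0.0568). The dimmer Cald1 probe gave differences of the other sign, none of which passed: 0.41 (adjusted p = 0.201) with the high dose, 0.16 (adjusted p = 0.62) with valsartan and 0.35 (adjusted p = 0.317) with the low dose.

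Lmod1, the actin-nucleating leiomodin of smooth muscle, fell in all 3 comparisons by its brighter probe. Levels on saline arrays 1 to 8 were 3.28, 3.14, 2.27, 3.14, 3.34, 3.23, 2.39 and 2.70. They ranged from 2.15 to 2.52 with the low dose (median 2.25), from 1.00 to 2.53 with the high dose (median 1.41) and from 1.38 to 2.01 with valsartan (median 1.79). Valsartan and saline did not overlap, and of the high-dose arrays only array 1 reached the saline range. The fall was 1.56-fold with the low dose (-0.64 ± 0.21, adjusted p = 0.0177), 2.60-fold with the high dose (-1.38 ± 0.21, adjusted p = 4.56e-06) and 2.32-fold with valsartan (-1.21 ± 0.21, adjusted p = 2.47e-05).

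The 2 Lmod1 probes disagreed. The dimmer one was called higher with the high dose (0.57 ± 0.24, adjusted p = 0.0469) and was 0.57 with the low dose (adjusted p = 0.064) and 0.31 with valsartan (adjusted p = 0.271). On that probe saline arrays 3 and 7 read -1.54 and -1.59, below the lowest treated array at -0.58, saline array 8 read -0.50, and the other saline arrays lay between -0.20 and 0.13. Which transcripts the 2 probes detect was not tested. With the median over both probes Lmod1 was -0.40 with the high dose (adjusted p = 0.0879), -0.035 with the low dose (adjusted p = 0.908) and -0.45 with valsartan (adjusted p = 0.0572), none of which passed.

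Smtn, smoothelin, which marks fully contractile smooth muscle, was the only member whose brighter probe rose at the scaling used here. Levels on saline arrays 1 to 8 were 5.05, 5.10, 3.78, 5.19, 4.71, 5.06, 3.33 and 4.51. They ranged from 5.25 to 6.04 with the low dose (median 5.80), from 5.17 to 5.93 with the high dose (median 5.59) and from 5.43 to 6.34 with valsartan (median 5.60). The low-dose and valsartan arrays all lay above the highest saline array, and the high-dose arrays above all saline arrays other than array 4. The rise was 2.23-fold with the low dose (1.16 ± 0.24, adjusted p = 0.000449), 2.02-fold with the high dose (1.02 ± 0.24, adjusted p = 0.000929) and 2.33-fold with valsartan (1.22 ± 0.24, adjusted p = 0.00013). The dimmer Smtn probe, at levels near or below 0, passed in none of them (0.53, adjusted p = 0.105, then 0.30, adjusted p = 0.329, and 0.18, adjusted p = 0.553, in the same order).

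Des, desmin, fell in all 3 comparisons by similar amounts. Levels on saline arrays 1 to 8 were 4.45, 4.50, 3.01, 4.41, 4.32, 4.42, 2.78 and 3.90. They ranged from 2.77 to 3.28 with the low dose (median 2.93), from 2.51 to 3.30 with the high dose (median 2.75) and from 2.24 to 3.28 with valsartan (median 2.65). Saline arrays 3 and 7 lay among the treated arrays and the other saline arrays lay above all of them. The fall was 2.02-fold with the low dose (-1.01 ± 0.24, adjusted p = 0.00125), 2.23-fold with the high dose (-1.16 ± 0.24, adjusted p = 0.00018) and 2.39-fold with valsartan (-1.26 ± 0.24, adjusted p = 6.54e-05).

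**Figure D2:**
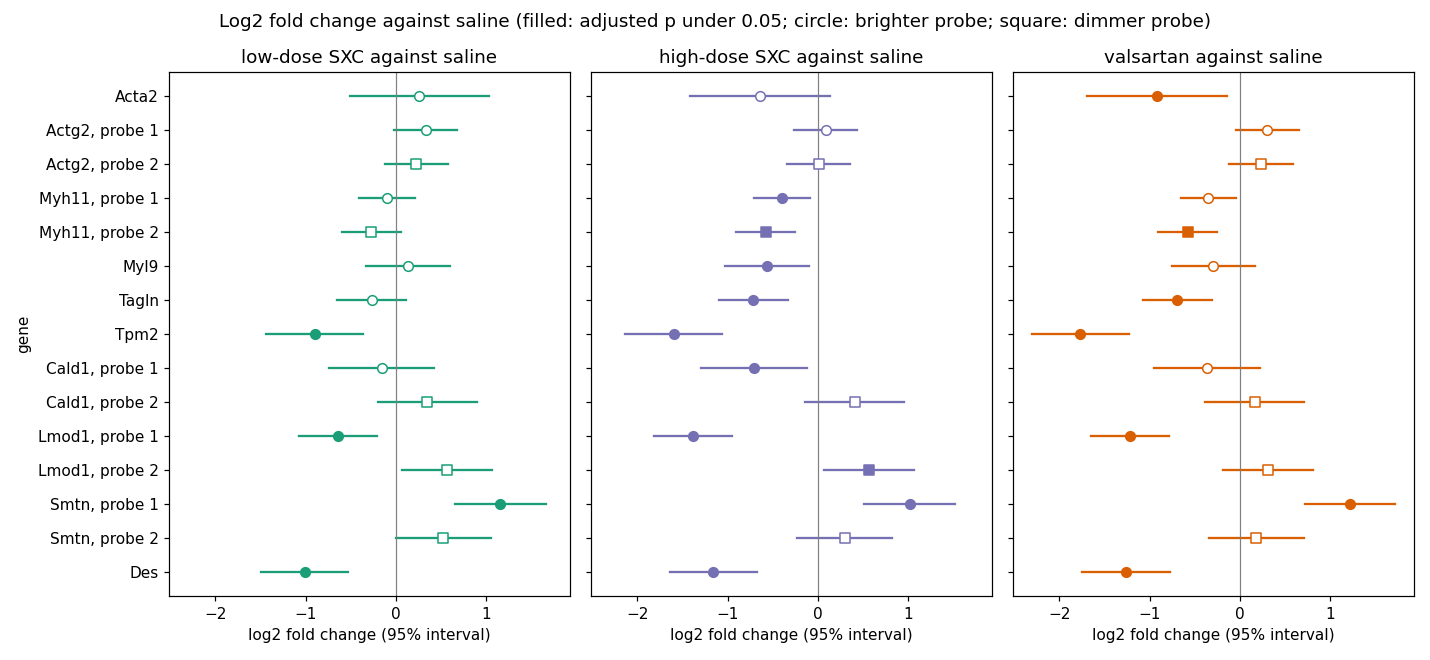
Log2 fold change against saline with its 95% interval for all 15 probes of the filament genes, in 1 panel per treatment; circles are the brighter and squares the dimmer probe of a gene, and filled symbols have an adjusted p under 0.05. Tpm2, the brighter Lmod1 probe and Des lie left of 0 and the brighter Smtn probe right of 0 in all 3 panels, while the dimmer Lmod1 and Cald1 probes lie right of 0.

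The genes whose groups did not overlap at all with saline were 0 with the high dose, 2 with the low dose (Tpm2 and Smtn) and 3 with valsartan (Tpm2, Lmod1 and Smtn). Over all tested probes the groups did not overlap for 28.4%, 30.8% and 30.1%. With the 3 saline pairs averaged and arrays 4 and 8 left out, 5 genes were called with the high dose (Tagln, Tpm2, Lmod1 and Des lower, Smtn higher), 2 with the low dose (Des lower, Smtn higher) and the same 5 as for the high dose with valsartan, beside 39.8%, 22.4% and 41.1% of all probes in that setting. Tpm2 and Lmod1 kept their low-dose differences of -0.90 and -0.64 in that setting, at adjusted p = 0.0723 and 0.106.

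Between the treated groups, which leave the saline arrays out of the contrast but not out of the estimate of spread, fewer members and fewer of all probes were called. With the high dose against the low dose, 2 of 10 were called, both lower, beside 25.6% of all probes called and 10.5% called lower. Myl9 was 1.63-fold lower (-0.70 ± 0.24, adjusted p = 0.0343), and no high-dose array reached the low-dose range. Lmod1 was 1.67-fold lower (-0.74 ± 0.23, adjusted p = 0.0186), with high-dose array 1 at the top of the low-dose range and the other 5 below it. Acta2 did not pass (-0.91 ± 0.40, adjusted p = 0.097), although every high-dose array was below every low-dose array. The groups thus did not overlap for 2 members (Acta2 and Myl9), beside 4.6% of all probes. The SE of Acta2 rests on the spread within all 4 groups. Its SD was 1.27 with saline, 0.20 with the low dose, 0.43 with the high dose and 0.21 with valsartan.

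With valsartan against the low dose, 2 of 10 were called, both lower, beside 27.4% of all probes called and 14.5% called lower. Acta2 was 2.27-fold lower (-1.18 ± 0.40, adjusted p = 0.0304) and Tpm2 1.83-fold lower (-0.87 ± 0.28, adjusted p = 0.0215), in both cases with no overlap. With scan day or gain as a block neither passed and Tpm2 turned sign (0.63 and 0.32), with Acta2 at -0.27 and -0.37. In those settings 0.0211% and 0.0168% of all probes were called. No valsartan array shares a scan day or gain with a low-dose array, so these values come only through the high-dose arrays. Lmod1 did not overlap either but missed the threshold (-0.58 ± 0.23, adjusted p = 0.0566). The groups did not overlap for these 3 members and for 16.7% of all probes.

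With valsartan against the high dose, limma called 0 of 10, beside 0.969% of all probes. The differences ran from -0.27 (Acta2, 95% interval -1.10 to 0.55) to 0.34 (Cald1, -0.28 to 0.97), and none of the 10 had an unadjusted p under 0.05. The intervals use the spread within all 4 groups, which for Acta2 was widest with saline. For Des, Smtn and Tagln the intervals were -0.62 to 0.42, -0.33 to 0.74 and -0.38 to 0.43. No member's groups were free of overlap, beside 0.893% of all probes.

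The 3 tests between treated groups ran along the detector gain. High-dose arrays 1 and 2, read at the higher gain, had Acta2 levels of 6.41 and 6.45, Tpm2 levels of 5.41 and 4.98 and Lmod1 levels of 2.53 and 1.99, whereas arrays 3 to 6, read at the lower gain, reached at most 5.76, 4.46 and 1.44. Within the higher gain, high dose against low dose gave 0 calls among the members and 0 among all 23744 probes, with log2 fold changes of -0.36 for Acta2, -0.68 for Myl9 and -0.04 for Lmod1 (each adjusted p = 1). No valsartan array shares a gain with a low-dose array. In the comparisons with saline, the higher gain alone left 2 calls for the high dose, beside 25.6% of all probes: Des (-1.17, adjusted p = 0.016) and Lmod1 (-0.68, adjusted p = 0.0454), with Smtn at 0.96 (adjusted p = 0.0522) and Tpm2 at -0.80 (adjusted p = 0.0689). Only high-dose arrays 1 and 2 enter those values. All 6 low-dose arrays share the saline gain. That comparison therefore keeps all its arrays and fold changes within the gain, and its 4 calls stood. With gain as a block, valsartan against saline gave 0 calls among the members and 12.5% among all probes, with Des at -1.27 (adjusted p = 0.0647) and Smtn at 1.13 (adjusted p = 0.111). Gain and valsartan cannot be told apart except through the high-dose arrays.

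**Figure D3:**
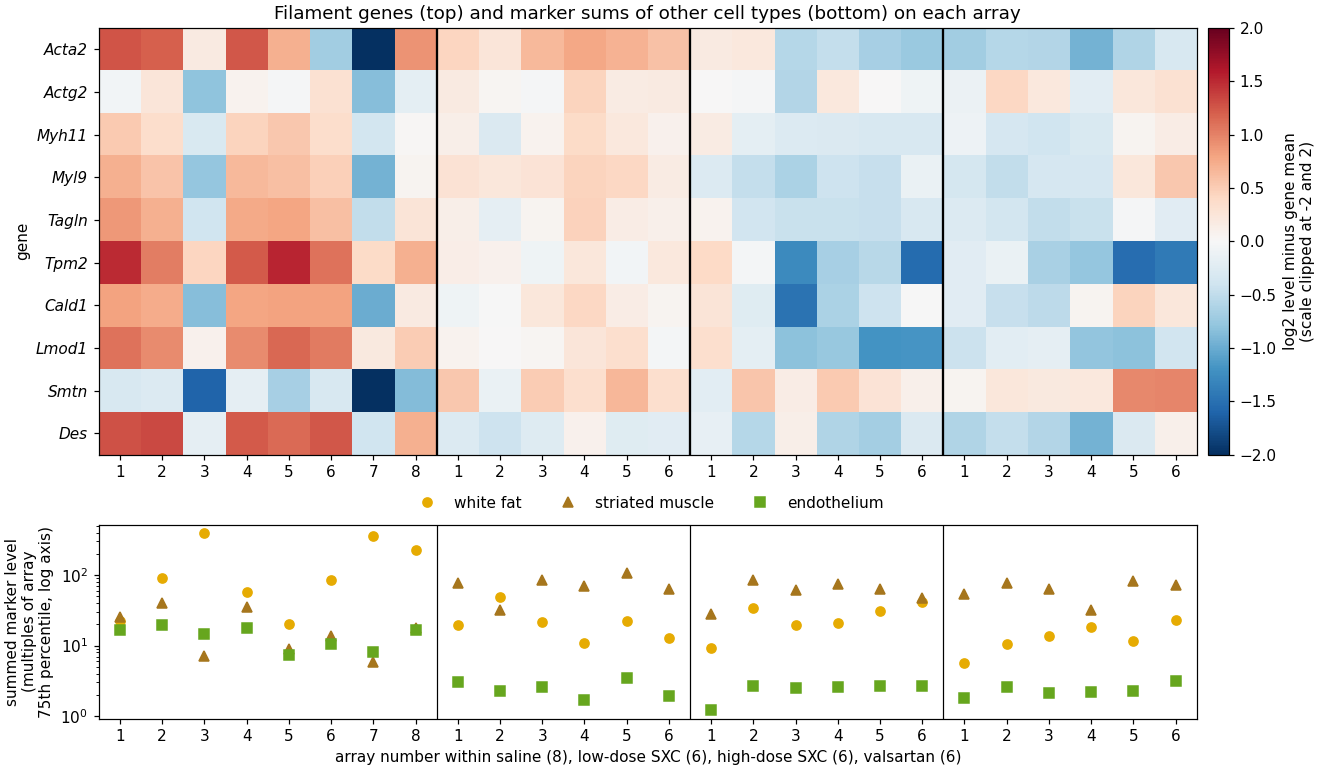
Top, log2 level of each filament gene on each array minus the gene's mean over the 26 arrays (colour, clipped at -2 and 2); bottom, summed level of white fat, striated muscle and endothelial marker genes on the same arrays, in multiples of the array's 75th percentile on a log axis. Saline arrays 3 and 7 are low in most filament genes and have the highest white fat sums. On the treated arrays the endothelial sums are lower, and the striated muscle sums are mostly higher but overlap those of saline.

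Apart from Acta2, which was lower on saline array 6 (5.53) than on array 3 (6.41), the filament genes varied together among the saline arrays. Some other gene lists also dipped on arrays 3 and 7. The median over the 10 genes of the centred level (log2 level minus the gene's mean over the 26 arrays) was 0.54 to 0.84 on saline arrays 1, 2, 4, 5 and 6, 0.22 on array 8, and -0.35 and -0.68 on arrays 3 and 7. On the treated arrays it ran from -0.003 to 0.40 with the low dose, from -0.58 to 0.12 with the high dose and from -0.45 to 0.12 with valsartan. The summed level of the 10 genes, in multiples of the array's 75th percentile, was 187 to 561 with saline (median 452), 333 to 461 with the low dose (median 398), 241 to 355 with the high dose (median 286) and 255 to 362 with valsartan (median 295). The sum of 7 fibroblast markers was also lowest on saline arrays 3 and 7 (389 and 366, against 536 to 708 on the other saline arrays). So was the sum of 7 red cell genes (441 and 427, against 963 to 1325). The sum of 7 nerve and Schwann cell genes was instead highest there among the saline arrays (8.94 and 8.37), and the endothelial sum was lowest on array 5.

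The low saline arrays were those with the most fat RNA. The summed level of 7 white fat markers was 391 and 362 on saline arrays 3 and 7 and 229 on array 8, against 20.4 to 90.4 on the other 5. The sum of 6 brown fat markers was 546, 492 and 338 on arrays 3, 7 and 8, against 18.8 to 67.8. On the treated arrays the white fat sum was 10.9 to 49.6 with the low dose, 9.25 to 42.1 with the high dose and 5.60 to 23.0 with valsartan. Without saline arrays 3, 7 and 8, 9 members were called for the high dose, 7 for the low dose and 9 for valsartan, with Smtn still the only member higher, beside 51.9%, 33.6% and 53.1% of all probes. Acta2 was then lower with the high dose (-1.08, adjusted p = 0.00149) and valsartan (-1.36, adjusted p = 0.000165), and the rise of Smtn shrank to 0.73, 0.59 and 0.79 (low dose, high dose, valsartan) while the fall of Des grew to -1.46, -1.60 and -1.71. Since these are the saline arrays with the lowest filament levels, leaving them out raises the saline mean of most members, and the part of fat in the comparisons was not tested.

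Cell type markers also differed from saline, where scan day and treatment cannot be told apart. Beside the counts below, 25.4%, 16.9% and 27.3% of all probes were called lower (high dose, low dose, valsartan). The shares called higher were 30.7%, 22.4% and 30.3%. Of 7 white fat markers, 6 fell in each comparison, and of 6 brown fat markers 1 fell with the high dose, 2 with the low dose and 5 with valsartan. Of 7 endothelial markers, 6 fell with each SXC dose and 5 with valsartan, and Cdh5 rose in all 3, with summed levels of 7.31 to 19.4 with saline and 1.23 to 3.44 over the treated arrays. With valsartan Esam, Cldn5, Nos3 and Tek were well above background on 0 of 6 arrays and Tie1 on 1. With the high dose Tie1 and Tek were so on 0 of 6. Of 8 macrophage markers, 7 fell in each comparison (12.96 to 28.6 with saline, 2.12 to 5.60 over the treated arrays). All 7 red cell genes fell in each comparison (427 to 1325 against 7.23 to 57.8). The macrophage genes Mrc1 and Cd163 were well above background on 0 of 6 valsartan arrays, and the red cell gene Add2 on 0 in every treated group. The size of such falls is limited by background. Of 7 fibroblast markers, 5 fell with the high dose, 3 with the low dose and 5 with valsartan. Of 7 nerve and Schwann cell genes, 3 rose with the high dose, 1 with the low dose and 2 with valsartan, where 1 fell. Their sum was 2.59 to 8.94 with saline, 3.98 to 10.6 with the low dose, 6.49 to 34.6 with the high dose and 11.9 to 23.1 with valsartan. The part of these cell types in the filament gene levels was not tested.

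Genes of striated muscle, which has its own set of contractile filaments, did not move as 1 group at the scaling used here. Of 12 on the array, 10 were tested, and 3 rose and 4 fell with the high dose, 2 and 2 with the low dose and 2 and 3 with valsartan, beside 30.7% of all probes higher and 25.4% lower, 22.4% and 16.9%, and 30.3% and 27.3%. Their median log2 fold change was -0.18, -0.33 and -0.12 in the same order. With normexp background correction 5 rose and 2 fell, 1 rose and 1 fell, and 6 rose and 2 fell, with medians of 0.36, -0.02 and 0.84. Under quantile scaling the medians were -0.85, -0.30 and -1.095. The direction of the list thus depended on the processing. Actc1, the cardiac actin, rose by 2.25, 2.58 and 2.40 on the log2 scale (high dose, low dose, valsartan; adjusted p = 0.000223, 8.96e-05 and 0.000102), and Myl2, the ventricular light chain, by 5.24, 1.35 and 5.37 (adjusted p = 1.2e-08, 0.0477 and 7.67e-09). The low-dose Myl2 call was lost under each of the other 4 scalings (adjusted p = 0.056 to 0.0811). Acta1, the skeletal muscle actin, fell by 1.26 with the high dose (well above background on 5 of 6 arrays) and fell by 2.54 with valsartan (2 of 6 arrays). The troponin Tnnt2 fell by 1.00 with the high dose, fell by 0.57 with the low dose and fell by 1.43 with valsartan, where 3 of 6 arrays measured it. The low-dose Tnnt2 call was lost under quantile scaling (adjusted p = 0.256) and with the authors' deposited table (0.258). The summed level of the 12 genes was 5.77 to 39.9 with saline and 27.7 to 106 over the treated arrays. Its part in the filament gene levels was not tested.

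The other actin, myosin and filament-bound or adhesion plaque genes moved in both directions. Of 36 listed, 30 were on the array and tested. With the high dose 6 rose and 8 fell, with the low dose 11 rose and 5 fell, and with valsartan 8 rose and 8 fell, beside the shares of all probes given above for calls in each direction. Their median log2 fold change was -0.03, 0.26 and -0.03, beside 0.10, 0.08 and 0.10 over all probes. Zyx, the focal adhesion protein zyxin, rose by 1.72, 1.68 and 0.94 (high dose, low dose, valsartan; adjusted p = 3.75e-08, 1.98e-07 and 0.000159), and Pdlim5, a PDZ-LIM protein of actin structures, by 1.18, 1.15 and 1.12. Tln1, talin, which links integrins to actin, rose by 0.81, 1.18 and 0.48, the last of which did not pass under normexp (0.20). Lpp rose by 1.21 with the high dose (5 of 6 arrays above background), a call lost under quantile scaling (0.81) and with the authors' deposited table (0.87). Pdlim3 rose by 1.69 with the high dose (4 of 6 arrays above background). It was also called higher with valsartan but was well above background on 0 of the 6 valsartan arrays, so no fold is given for it there.

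Fhl2, a LIM-domain protein, fell by 1.98 with the low dose (adjusted p = 0.000183). With the high dose it was above background on 3 of 6 arrays and its fall of 1.48 was lost under normexp (-0.22), and with valsartan on 0 of 6. Tpm3, a tropomyosin of non-muscle and slow striated filaments, fell by 1.73, 1.25 and 1.25 (high dose, low dose, valsartan) (adjusted p = 1.26e-06, 0.000177 and 9.18e-05). Vim, vimentin, the intermediate filament protein that arterial smooth muscle carries beside desmin, fell by 1.25, 0.85 and 1.04, and Tagln2 by 1.42, 1.09 and 1.41. Actb, the cytoplasmic beta actin, fell by 0.68 with the high dose and by 0.74 with valsartan. Tpm1 (-0.34, adjusted p = 0.183, with the high dose) and Cnn1, calponin (-0.51, adjusted p = 0.125), did not pass there. Between treated groups, 2 of the 30 (Actn4 and Myl12b) were lower with the high than the low dose and 6 were lower with valsartan than the low dose, among them Actn4 (-0.82, adjusted p = 0.00189) and Zyx (-0.74, adjusted p = 0.00879), beside 10.5% and 14.5% of all probes called lower. The Myl12b call for the high against the low dose was lost under quantile scaling, over spots and with the authors' deposited table (adjusted p = 0.287, 0.0876 and 0.281), and the 6 became 3 under quantile scaling and with the authors' deposited table.

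Genes known to rise in dedifferentiated, proliferating smooth muscle were also split. Of 12 listed, 11 were tested, and 4 rose and 4 fell with the high dose, 4 rose and 1 fell with the low dose, and 4 rose and 4 fell with valsartan. Of all probes, 30.7% were higher and 25.4% lower with the high dose, 22.4% and 16.9% with the low dose, and 30.3% and 27.3% with valsartan. Among those that rose in all 3 comparisons were Vcan, the proteoglycan versican (1.21, 1.43 and 1.69 for high dose, low dose and valsartan), S100a4 (0.56, 0.84 and 0.61) and Myh10, non-muscle myosin heavy chain (0.93, 1.54 and 0.62). Klf4, a transcription factor that represses contractile genes, fell by 1.32, 0.97 and 0.90 (adjusted p = 4.72e-05, 0.00207 and 0.00242), and Lgals3, Mgp and Col8a1 fell with the high dose and with valsartan. Under normexp the calls of S100a4 and Col8a1 with the high dose and valsartan, and of Myh10 with valsartan, were lost. The Col8a1 call was also lost with the high dose over spots (adjusted p = 0.0667) and with valsartan under quantile scaling (0.0843) and with the authors' deposited table (0.0502). The median of the list was -0.30, 0.06 and -0.13.

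As a description, the profile of the members over the 26 arrays, taken as the median of their centred levels, was compared with 4199 named genes that were well above background on all arrays. The genes with the smallest root mean square difference were Casp12 (0.13 on the log2 scale), Rarres2 (0.14), Cldnd1 (0.16), Actb (0.17) and Rsu1 (0.17). Of the members themselves Tagln lay closest to that profile (0.10), followed by Myh11 (0.18), Myl9 (0.20) and Cald1 (0.27), and Smtn (0.81), Tpm2 (0.65) and Acta2 (0.57) lay farthest. The members are part of the profile they are set against, and all values share the same 26 arrays.

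**Figure D4:**
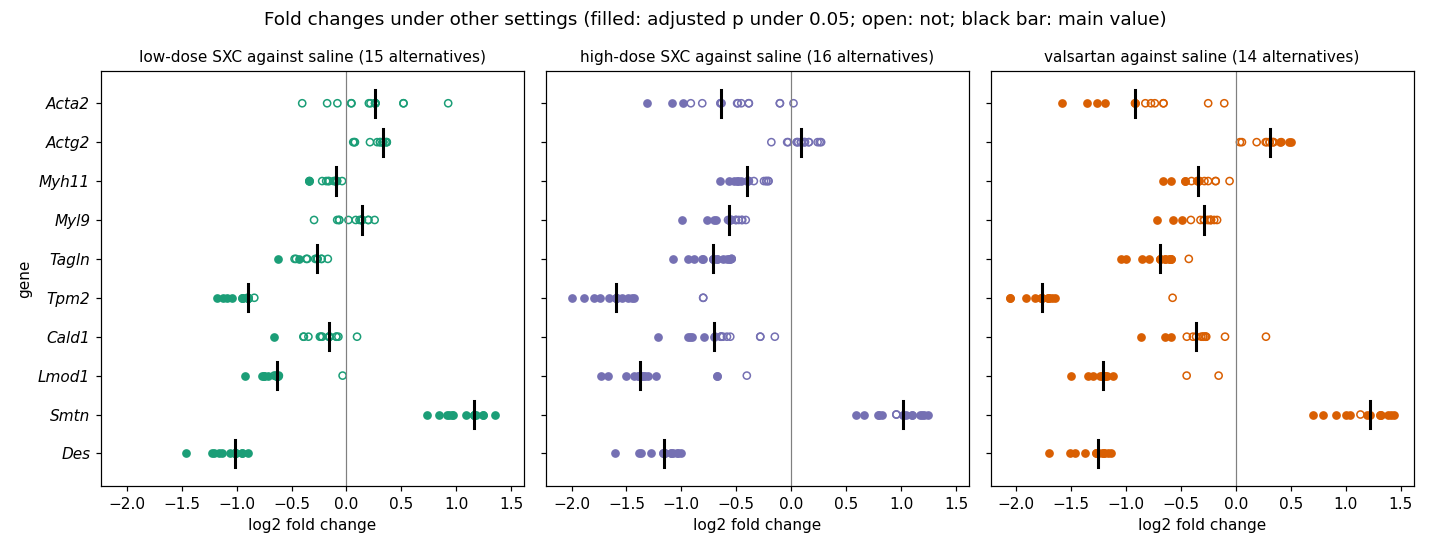
Log2 fold change of each filament gene against saline under 15 (low dose), 16 (high dose) and 14 (valsartan) other settings of scaling, background, probe choice, blocks and saline arrays; filled points have an adjusted p under 0.05, open points not, and the black bar is the value given above. All points for Des lie left of 0 and all for Smtn right of 0, while those for Acta2 with the low and the high dose lie on both sides.

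Across these settings Des and Smtn were the steadiest members. Des was called lower in 16 of 16 settings with the high dose, 15 of 15 with the low dose and 13 of 14 with valsartan, and Smtn higher in 14 of 16, 15 of 15 and 13 of 14. Tpm2 was called lower in 14 of 16, 13 of 15 and 13 of 14, and Lmod1 in 15 of 16, 11 of 15 and 12 of 14. All settings but the median over probes use a gene's brighter probe alone, so these tallies do not test where 2 probes disagree. With that median Lmod1 passed in none of the comparisons with saline. Tagln was called lower in 14 of 16 with the high dose and 13 of 14 with valsartan, but in 2 of 15 with the low dose. The remaining falls were called in fewer: Myh11 in 7, Myl9 in 6, Cald1 in 6 and Acta2 in 3 of 16 with the high dose, and Acta2 in 6 of 14 with valsartan. The settings share their arrays, and some are nearly the same test. Gain as a block and within 1 gain called the same share of all probes with the high dose (25.6%) and with the low dose (42%). With the low dose both keep the arrays and fold changes of the main comparison. The authors' deposited values lay close to quantile scaling (54.7% and 55% of probes called with the high dose). None of the settings separates scan day from treatment.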

How the data were processed

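The arrays are 1-colour (Cy3) Agilent arrays of total RNA from the thoracic aorta. Per the file headers, scans were read by Agilent's Feature Extraction, version 11.0.1.1 in the submitters' processing notes, and the deposited intensity values used here (processed signal) were background-subtracted within each array and not scaled between arrays. Spot flags came from the same files. The authors' deposited table of log2 values, which no label or header describes further, served as an alternative (each column correlated best with its own array).

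Control spots and outlier spots were left out and spots of a probe averaged. Levels are log2 intensity minus each array's 75th percentile over the probes outside controls, each probe counted equally. Tested were the 23744 of 30367 probes with at least 0.5 of their spots well above background on at least 6 of 26 arrays. Of the 30367 probes, 18005 were named with 1 symbol by accession in the RefSeq list (GRCr8), 0 with several and 12362 with none. In all, 1187 values were missing, none in the members. Groups came from the sample titles. All 4 groups entered 1 limma 3.58.1 fit in R 4.3.3 (lmFit, contrasts, eBayes with a trend, no covariates, 2-sided), and adjusted p-values come from it. Figures were drawn with matplotlib 3.10.9. The fit was tested on simulated data.

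The gene stands by its brightest probe. The text names all 10 members, up to 4 of the largest calls in each direction of the other filament and the dedifferentiation lists, with a few further members chosen after their values were seen (Tln1, Actb, Tpm1, Cnn1, and those of marker lists), and the 5 genes most like the members' profile. A gene of the dedifferentiation list that this rule would name is not reported here. Members and lists were chosen with earlier results of these data known. The labels say that RNA was extracted from each aorta separately, while saline arrays resemble each other in pairs, so p-values measure only the spread between these arrays, which may be technical in part.

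Replicate numbers did not pair the samples: deviations from group means of same-numbered arrays correlated with a median of -0.02 over 36 pairs, and 6 exceeded 0.1. Alternatives were other scalings, normexp (offset 50), no filter, the median over probes, blocks, and left-out arrays.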

Additional observations from a re-analysis of the deposited data

Results flagged for a closer look

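In 60 groups of arrays (15 probes in 4 groups), the highest or lowest array was set against the rest with Dixon's ratio, the gap to its neighbour over the whole range, at the 95% critical value; 5 groups passed, and chance alone passes about 1 in 20. High-dose array 3 was lowest for Actg2 (brighter probe, level 5.51, ratio 0.638); it is the array with the smallest share of probes well above background, 28.7%. High-dose array 1, read at the higher gain, was highest for Myh11 (brighter probe, 5.83, ratio 0.731) and for Tagln (4.75, ratio 0.733). Low-dose array 2 was lowest for the dimmer Cald1 probe (2.04, ratio 0.659), and low-dose array 4 highest for Des (3.28, ratio 0.633). No saline group passed.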

How the results depend on the processing

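The number of members called, 8, 4 and 6 against saline (high dose, low dose, valsartan), 2 for the high against the low dose, 2 for valsartan against the low dose and 0 for valsartan against the high dose, moved with scaling, background, blocks and the choice of saline arrays. For the high dose it was 5 under quantile scaling, the 75th percentile over spots, the authors' deposited values, slide as a random block (correlation 0.23), saline without arrays 4 and 8, saline as 3 averages and saline arrays 5 to 8, and 2 with gain as a block or within 1 gain. The shares of all probes called there were 55%, 57.1%, 54.7%, 45%, 51.2%, 39.8% and 45.9%, and 25.6% in both gain settings, beside 56.2% in the main setting. For the low dose it was 2 with saline as 3 averages or arrays 5 to 8 and 7 without saline arrays 3, 7 and 8. Beside these counts, 22.4%, 29.6% and 33.6% of all probes were called. For valsartan it was 0 with gain as a block, beside 12.5% of all probes. High against low dose gave 0 under quantile scaling, spots, the authors' values, slide, scan day and gain blocks and within 1 gain or day, 1 with the median over probes, and 4 under normexp or without high-dose arrays 1 and 2. The shares of all probes were 15.4%, 22.2%, 15.5%, 6.8% and 0% in each day and gain setting, then 26%, 35.5% and 39%. Valsartan against low dose gave 0 under quantile scaling, the authors' values and the slide, day and gain blocks, and 6 under normexp. In these settings 25.6%, 23.8%, 9.07%, 0.0211%, 0.0168% and 58.3% of all probes were called. Spots, saline arrays 1 to 4 or 5 to 8, and the splits within 1 gain or day were added after seeing the data. Leaving out 1 array gave 5 to 9, 4 to 4, 5 to 7, 0 to 4, 1 to 2 and 0 to 0 in the order above. The high-dose count was 5 without saline array 1, 4 or 5 or without high-dose array 5, and the count for high against low dose was 0 without high-dose array 5 and 4 without high-dose array 1. The shares of all probes were 54.8%, 54.6%, 55.9% and 52.5% for the high dose, and 18% and 34.8% for high against low dose.

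With the replicate number as a block the counts were 9, 5, 9, 5, 2 and 0, beside 51.4%, 32.9%, 52.6%, 22.9%, 25.5% and 0.329% of all probes. The labels give no shared animal or batch for a number, and 6 of 26 arrays correlated best with an array of their own number.

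Of 36 differences followed through the settings other than leaving out 1 array, 396 values kept sign and side of the threshold, 79 lost the call, 25 gained it and 19 changed sign. The changed signs among differences against saline were small: Myl9 with the low dose under quantile scaling (-0.067), the authors' values (-0.085), the replicate block (-0.067) and without saline arrays 3, 7 and 8 (-0.30); Actg2 with the high dose under normexp (-0.037), the replicate block (-0.029) and without those arrays (-0.18); Cald1 with the low dose by the median over probes (0.10) and with valsartan under the gain block (0.27). Acta2 with the low dose changed sign under the replicate block (-0.083), without saline arrays 3, 7 and 8 (-0.18) and with saline arrays 1 to 4 (-0.40), and with the high dose with arrays 5 to 8 (0.020). Between treated groups, Lmod1 for high against low dose was 0.056 with scan day as a block or within 1 day, and for valsartan against low dose Tpm2 was 0.63 and 0.32, and Lmod1 0.58 and 0.48, with day and gain as blocks. Leaving out 1 array gave -0.0095 to 0.19 for Actg2 with the high dose, and -0.12 to 0.40 for Acta2 and -0.022 to 0.21 for Myl9 with the low dose. The causes were not tested.

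Scaling moved the background. The median log2 fold change of all probes against saline was 0.10, 0.08 and 0.10 (high dose, low dose, valsartan), and -0.23, 0.01 and -0.30 under quantile scaling, 0.36, 0.22 and 0.53 under normexp, and 0.25, 0.09 and 0.20 over spots. The share of calls that were higher was 54.7%, 57.0% and 52.6%, and 41.6%, 54.0% and 38.0% under quantile scaling, 41.9%, 53.3% and 38.8% with the authors' values, and 68.2%, 63.6% and 72.3% under normexp. The other filament genes changed from 11 risen and 5 fallen with the low dose to 8 and 8 under quantile scaling, and from 8 and 8 with valsartan to 4 and 12 under normexp.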
